A study of Mus musculus with 2 samples.

Results

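Translation initiation and elongation factors were followed as 63 genes out of the 55536 annotated genes of the deposited gene tables. They were chosen by name: symbols that start with Eif and a digit from 1 to 6, or with Eef1 or Eef2, and that own a transcript annotated as protein_coding. Of 79 matching names, 16 were left out: 10 pseudogenes, 1 lincRNA, the 4 Eif2ak kinases and Eif2s3y, the Y-linked copy of Eif2s3x, which had 1 count in replicate 1 and 0 in replicate 2. The 63 genes divide into 50 with an initiation factor name (Eif) and 13 with an elongation factor name (Eef), and each was given a role. All 63 are called factors below, although methyltransferases, a kinase and inhibitors are among them.

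Initiation factors bring the messenger RNA cap, the initiator tRNA and the small ribosomal subunit together and find the start codon. Elongation factors then deliver each aminoacyl-tRNA and move the ribosome along by a codon. In the brain these steps are controlled by phosphorylation of eIF2, eEF2 and the cap-binding inhibitors, and the eEF1A gene used by mature neurons differs from the gene used by most other cells.

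The samples were left cerebral cortex from female B6CASTF1/J mice, the F1 cross of C57BL/6J and CAST/EiJ, at an age of 18 to 20 months. They formed 1 group without treatment or contrast, with 2 libraries of total RNA, biological replicates 1 and 2, each from 300 ng with spike-in RNAs. The pair of biosamples carried the same donor entry, so separate animals are not assured, and every spread given here is that between these libraries and may be technical. With 1 library on each side no p-value is given. Replicate 1 held 32357983 expected counts on genes and replicate 2 held 24798683, of which 238164 and 167381 fell on the 63 factors. A gene without counts could still make up 0.0927 CPM in replicate 1 and 0.121 CPM in replicate 2 (3 counts, counting error alone).

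Markers of cortex were present, with Snap25 at 1506 and 1393 TPM in replicates 1 and 2 and Slc1a2 at 655 and 689 TPM. All 3 genes listed for each of excitatory neurons, inhibitory neurons, astrocytes, oligodendrocytes and microglia lay above 7 TPM in both libraries. Muscle, another tissue that uses Eef1a2, had low markers: Acta1 at 5.07 and 4.67 TPM, and Ckm at 0.08 and 0 TPM. In a bulk sample, more cells of a type and more RNA per cell cannot be told apart.

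Levels are in TPM of the gene table (counts per unit of transcript length, scaled to the library), as mean ± SD of the 2 libraries unless a library is named. Of the 63 factor genes, 60 (95.2%) reached 1 TPM in both libraries, against 58.3% of the 22015 nuclear protein-coding genes. At 100 TPM there were 13 factor genes, against 3.65% of all nuclear protein-coding genes. The median factor gene had 33.9 ± 2.14 TPM, above the median of 15.8 ± 0.375 TPM among protein-coding genes at 1 TPM or more and below the 175.1 ± 14.8 TPM of the 76 cytosolic ribosomal protein genes. Together the factors held 5369 ± 235 TPM, or 1.26% of the protein-coding TPM in replicate 1 and 1.18% in replicate 2, while the ribosomal protein genes held 3.53% and 3.27%. The factors thus ran from Eef1a1, at 946 TPM on average, down to Eif4e1b, with 0 counts in replicate 1 and 1 in replicate 2.

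**Figure D1:**
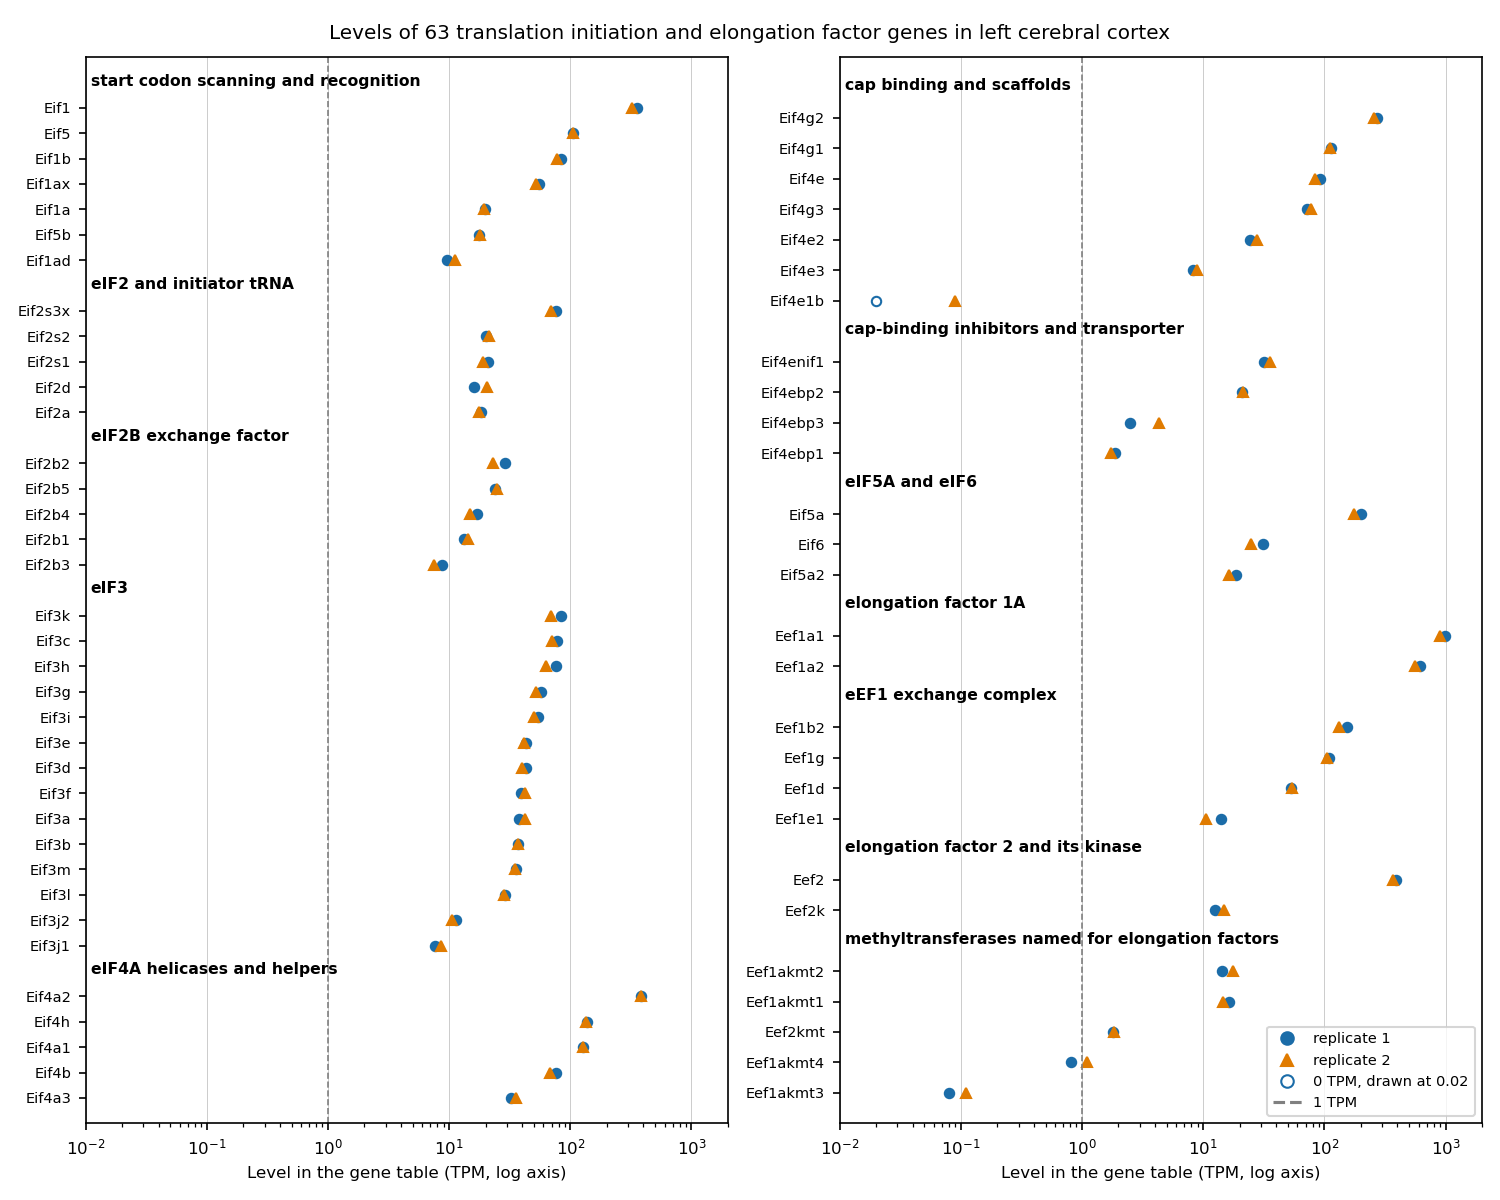
TPM of each factor gene in the gene table (log axis) by role, with circles for replicate 1 and triangles for replicate 2; the dashed line marks 1 TPM. Eef1a1 lies farthest right at 994 and 898.5 TPM, and Eef1akmt4, Eef1akmt3 and Eif4e1b lie below the line in at least 1 library.

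Among the proteins that scan for the start codon, Eif1, which keeps the scanning ribosome open, was the most abundant, at 354.7 and 325.2 TPM in replicates 1 and 2. Its paralogue Eif1b had 84.3 and 77.3 TPM. Both genes were somewhat higher in replicate 1, and the ratio of Eif1 to Eif1b was 4.21 in replicate 1 and 4.20 in replicate 2. In the alignment-free tables that ratio was 3.51 and 3.36. Eif5, which makes eIF2 hydrolyse its GTP once the start codon is met, had 105.0 ± 0.679 TPM. The X-linked Eif1ax and the autosomal Eif1a both encode eIF1A, the partner of eIF1 in scanning. Eif1ax had 54.7 and 52.4 TPM and Eif1a had 19.9 and 19.3 TPM, so Eif1ax gave 73.2% ± 0.224 of this family. In the alignment-free tables the share of Eif1ax was 65.0%. The coding sequences of Eif1a and Eif1ax were identical at 370 of 432 bases. Eif5b, the GTPase that joins the large subunit, had 17.7 ± 0.276 TPM. Eif1ad, listed in this group for its name and not for a known part in scanning, had 10.4 ± 1.10 TPM.

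The eIF2 complex carries the initiator tRNA, and phosphorylation of its alpha subunit, encoded by Eif2s1, lowers initiation in the integrated stress response. Eif2s1 had 20.9 and 19.2 TPM in replicates 1 and 2, and Eif2s2, the beta subunit, had 20.2 and 21.5 TPM. The gamma subunit, from Eif2s3x on the X chromosome, had 76.6 and 69.7 TPM. Eif2s3x stood at 3.65 ± 0.0223 times Eif2s1 in the gene table and at 6.12 ± 0.132 times in the alignment-free tables. The alpha and beta subunit genes lay at a like level in the gene table but not in the alignment-free tables, where Eif2s1 had 19.1 and Eif2s2 33.4 TPM on average. Eif2a and Eif2d encode proteins that can bring tRNA to the ribosome without eIF2. They had 18.0 ± 0.262 and 18.2 ± 3.11 TPM. The 5 subunits of eIF2B, the exchange factor that reloads eIF2 with GTP, ran from 8.15 ± 0.940 TPM for Eif2b3 to 25.8 ± 4.11 TPM for Eif2b2, with Eif2b5, the catalytic subunit, at 24.4 ± 0.841 TPM. The regulated serine codon of Eif2s1 is shown here because it is the site at which the stress kinases act. The bases are coding bases 139 to 171 of Eif2s1-201 on the plus strand of chromosome 12 (GENCODE M21, mm10), and capitals mark the serine codon, codon 52 with the start codon as 1.
Eif2s1: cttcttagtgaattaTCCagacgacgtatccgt

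The 14 eIF3 genes encode the scaffold that holds the small subunit and recruits the message. All 14 passed 1 TPM in both libraries. Without Eif3j1 and Eif3j2, whose product is a loosely bound subunit, the 12 others lay within 2.87-fold of each other in replicate 1 (Eif3l at 29.1 TPM to Eif3k at 83.6 TPM) and within 2.48-fold in replicate 2 (Eif3l at 28.6 TPM to Eif3c at 70.9 TPM). The largest subunit gene, Eif3a, had 40.1 ± 3.25 TPM, Eif3b 36.9 ± 0.375 TPM, and Eif3d, which can bind the cap of some messages, 41.7 ± 2.37 TPM. Eif3e, Eif3f, Eif3g, Eif3h, Eif3i and Eif3m lay between 35.4 and 69.5 TPM. Eif3j1 had 8.07 ± 0.636 TPM and Eif3j2 11.1 ± 0.566 TPM. The aligned coding sequences of Eif3j1 and Eif3j2 were identical at all 783 bases, so the split of reads between these genes is uncertain.

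The eIF4A helicases unwind the leader of the message. Eif4a2 had 381.4 and 384.6 TPM in replicates 1 and 2, the third highest mean of all factors, although Eef2 stood above it in replicate 1. Eif4a1 had 126.1 and 127.5 TPM, and Eif4a3, a core protein of the exon junction complex rather than an initiation factor in the narrow sense, had 32.4 and 35.4 TPM. Eif4a2 gave 70.4% ± 0.289 of the family TPM, and Eif4a2 stood 3.02 ± 0.00692 times above Eif4a1. In the alignment-free tables that ratio was 1.88 ± 0.131, and the order of the 3 genes was kept. The coding sequences of Eif4a2 and Eif4a1 were identical at 952 of 1218 aligned bases (78.2%), with no shared stretch longer than 20 bases, and those of Eif4a3 and Eif4a1 at 67.4%. The codons of the DEAD motif, for which this helicase family is named, are shown in capitals to let the 3 genes be compared over the same stretch. They are the 4 codons from 184 of Eif4a2-203 (chromosome 16, plus strand), from 182 of Eif4a1-213 and from 187 of Eif4a3-201 (both chromosome 11, minus strand; GENCODE M21, mm10).
Eif4a2: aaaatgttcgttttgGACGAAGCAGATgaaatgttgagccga
Eif4a1: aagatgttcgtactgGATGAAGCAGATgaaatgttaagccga
Eif4a3: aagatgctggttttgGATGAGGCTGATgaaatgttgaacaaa

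The helpers of eIF4A were also among the abundant factors. Eif4h had 137.4 and 133.6 TPM in replicates 1 and 2, and Eif4b had 72.1 ± 6.25 TPM. Eif4h and Eif4a1, next to each other in the order of levels, differed by more than their spread in the gene table (135.5 ± 2.72 against 126.8 ± 1.03 TPM), but the alignment-free tables turned the order, with 199.7 TPM for Eif4h and 375.4 TPM for Eif4a1. By contrast Eif4a2 at 383.0 ± 2.22 TPM and its neighbour Eef2 at 378.8 ± 18.8 TPM did not differ beyond the spread of Eef2, though they were at 703.8 and 528.1 TPM in the alignment-free tables.

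Cap binding is done by eIF4E on the scaffold eIF4G. Eif4e had 91.7 and 83.0 TPM in replicates 1 and 2. Eif4e2, whose product binds the cap in repressor complexes, had 24.5 and 27.9 TPM, and Eif4e3 had 8.29 and 8.95 TPM. Eif4e was higher in replicate 1 and Eif4e2 and Eif4e3 were higher in replicate 2, and Eif4e kept 71.4% ± 3.11 of the family. Eif4e1b, known as an oocyte form, had 0 counts in replicate 1 and 1 count in replicate 2, which is within the limit of 3 counts. The alignment-free tables gave it 18.0 and 20.8 estimated counts (0.672 and 1.03 TPM), and its posterior mean TPM in the gene table was 0.63 and 0.91, so its level depends on the estimate used. Among the scaffolds, Eif4g2, which lacks the eIF4E binding site and serves cap-independent initiation, had 270.6 and 256.2 TPM. The classical scaffold Eif4g1 had 113 and 110.7 TPM, and its neighbour in function Eif4g3 had 71.6 and 77.2 TPM. The order Eif4g2, Eif4g1, Eif4g3 held in both libraries, with Eif4g3 at 0.666 ± 0.0446 of Eif4g1.

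The 4E-BP proteins bind eIF4E and block the scaffold until mTOR phosphorylates them. Eif4ebp2, the main form in brain, had 21.02 and 21.37 TPM in replicates 1 and 2. Eif4ebp1 had 1.86 and 1.74 TPM, and Eif4ebp3 had 2.50 and 4.32 TPM. Eif4ebp2 gave 82.8% and 77.9% of the family, and the highest share of the others was 15.7%, for Eif4ebp3 in replicate 2. Set against its target, Eif4ebp2 stood at 0.243 ± 0.0199 of the Eif4e level in the gene table and at 0.155 ± 0.0178 in the alignment-free tables. Eif4enif1, which carries eIF4E into the nucleus and to P-bodies, had 33.7 ± 3.08 TPM. The coding bases around the eIF4E-binding motif are shown for the most and the least abundant 4E-BP gene of the gene table. In the alignment-free table of replicate 2, Eif4ebp1 (5.95 TPM) was not below Eif4ebp3 (5.89 TPM). Capitals mark the 6 codons of the motif (GENCODE M21, mm10). The bases are 145 to 192 of Eif4ebp2-201 on the minus strand of chromosome 10. Those of Eif4ebp1-201 are 142 to 189 on the plus strand of chromosome 8.
Eif4ebp2: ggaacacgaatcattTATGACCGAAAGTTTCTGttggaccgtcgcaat
Eif4ebp1: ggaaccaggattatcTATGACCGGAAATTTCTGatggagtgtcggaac

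eIF5A lets the ribosome pass stretches such as runs of proline and is the protein that carries hypusine, made on a lysine. Eif5a had 199.7 and 175 TPM in replicates 1 and 2, and its paralogue Eif5a2 had 18.5 and 16.5 TPM. Both were higher in replicate 1, and Eif5a2 stayed at 0.0934 ± 0.00113 of Eif5a; the alignment-free tables gave 0.0940 ± 0.00154. The enzymes that make hypusine were both present, Dhps at 27.2 TPM in each library and Dohh at 37.3 and 40.7 TPM. Eif6, which keeps the subunits apart until the large one is mature, had 31.3 and 24.98 TPM in replicates 1 and 2. The lysine codon that is hypusinated is shown in capitals for both genes (codon 50; bases 133 to 165 of Eif5a2-201, chromosome 3 plus strand, and of Eif5a-210, chromosome 11 minus strand; GENCODE M21, mm10). Over the whole coding sequence the genes were identical at 336 of 459 aligned bases (73.2%).
Eif5a2: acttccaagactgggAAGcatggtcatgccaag
Eif5a: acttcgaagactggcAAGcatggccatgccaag

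Elongation was led by eEF1A, the GTPase that brings aminoacyl-tRNA to the ribosome. Eef1a1 (chr9:78478449-78489151, mm10, minus strand) had 993.7 and 898.5 TPM in replicates 1 and 2, the highest level of all factors and rank 11 among the nuclear protein-coding genes. Eef1a2 (chr2:181147653-181157014, minus strand), the form that replaces Eef1a1 in mature neurons and muscle, had 610.1 and 561.9 TPM and rank 38. Both were higher in replicate 1 by a like amount, and Eef1a2 stood at 0.614 of Eef1a1 in replicate 1 and 0.625 in replicate 2. Eef1a2 thus gave 38.3% ± 0.306 of the eEF1A message in the gene table and 34.9% in the alignment-free tables. The first 60 coding bases of both genes are printed because this pair carries the most abundant factor message, and capitals mark the 11 bases at which they differ (Eef1a2-201 and Eef1a1-201; GENCODE M21, mm10).
Eef1a2: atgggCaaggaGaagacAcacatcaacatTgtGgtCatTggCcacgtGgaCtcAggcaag
Eef1a1: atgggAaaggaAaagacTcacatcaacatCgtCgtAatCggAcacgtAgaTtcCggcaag

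Over 1386 aligned coding bases the eEF1A genes were identical at 1110 (80.1%), and the longest identical run was 23 bases. No window of 100 bases was shared between these paralogues, and none of Eef1a2 occurred in any other annotated gene. The expected counts of Eef1a2 were whole numbers in both libraries, 27308 in replicate 1 and 18812 in replicate 2. For Eef1a1 the counts were fractional, and 26.7% of its windows occurred in other genes, 9 of them pseudogenes.

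**Figure D2:**
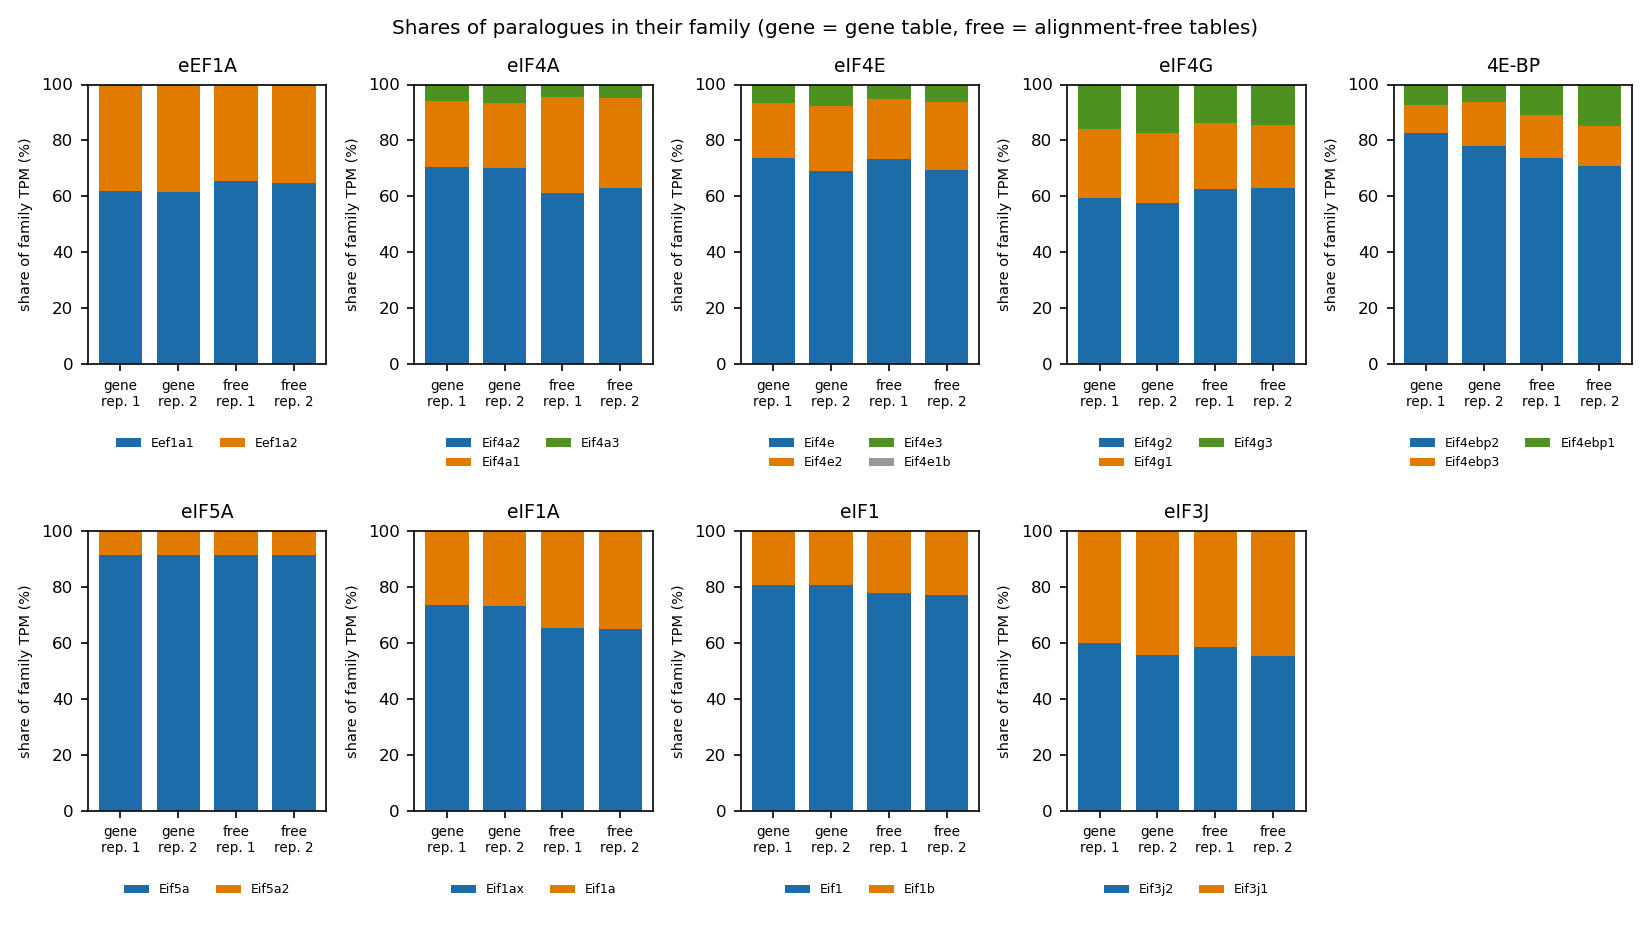
Share of each paralogue in the summed TPM of its family (percent), with bars for replicates 1 and 2 in the gene table and then in the alignment-free tables. Eef1a1 and Eif4a2 lead their families in all 4 bars, and the eIF4A family shifts most between the kinds of table, Eif4a1 having 23.3% in the gene table and 33.2% in the alignment-free tables.

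The exchange complex that reloads eEF1A is built from eEF1B subunits. Eef1b2, a catalytic subunit, had 154.2 and 132.1 TPM in replicates 1 and 2. Eef1g, the structural subunit, had 107 ± 3.35 TPM, and Eef1d, the other catalytic subunit, had 53.2 ± 0.622 TPM. The order was the same in both libraries, with a range of 2.92-fold in replicate 1 and 2.46-fold in replicate 2. Eef1e1, a small protein of the multisynthetase complex, had 12.3 ± 2.40 TPM.

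eEF2 moves the ribosome along the message. It stops when its kinase, eEF2K, phosphorylates a threonine, a step known for its control by calcium in neurons. Eef2 had 392.1 and 365.5 TPM in replicates 1 and 2, while Eef2k had 12.5 and 14.8 TPM. Eef2 was higher in replicate 1 and Eef2k in replicate 2. The message of eEF1A stood above that of eEF2, with Eef1a1 at 2.50 ± 0.0538 times Eef2 and Eef1a2 at 1.55 ± 0.0133 times Eef2. In the alignment-free tables these ratios were larger, at 3.30 ± 0.0743 and 1.77 ± 0.00702. The regulated codon is shown in capitals (threonine, codon 57 with the start codon as 1; bases 154 to 186 of Eef2-201, chromosome 10 plus strand; GENCODE M21, mm10).
Eef2: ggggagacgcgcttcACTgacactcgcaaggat

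The 5 methyltransferase genes named for elongation factors were the lowest of the roles. Eef1akmt2 had 14.3 and 17.5 TPM in replicates 1 and 2, and Eef1akmt1 had 16.2 and 14.7 TPM. Eef2kmt had 1.80 and 1.82 TPM. Eef1akmt4 had 0.81 and 1.09 TPM from 20 and 19 counts, and Eef1akmt3 had 0.08 and 0.11 TPM from 5 counts in each library. These values for Eef1akmt3 and Eef1akmt4 rest on too few reads to show a difference between the libraries.

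The libraries were then compared over all genes with a mean of 10 or more counts, as the log2 ratio of replicate 1 to replicate 2 after TMM scaling. None of the 61 factor genes tested differed by 2-fold, against 5.46% of all 18246 genes tested and 0.366% of the protein-coding genes at 1 TPM in both libraries. By 1.2-fold or more, 5 factors (8.20%) differed, against 34.1% of all genes tested and 19.4% of the protein-coding genes at 1 TPM. Of the ribosomal protein genes, which are also abundant, 10.5% did. These sets were not matched by level. The median log2 ratio of the factors was 0.08, with 45 of 61 higher in replicate 1 (73.8%). Of all genes tested 50.0% were higher in replicate 1, of the protein-coding genes at 1 TPM 56.3%, and of the ribosomal protein genes 74 of 76, with a median of 0.16.

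The factors farthest toward replicate 1 were Eif3h, with a log2 ratio of 0.31 from 2029 counts in replicate 1 and 1262 in replicate 2, Eif3k at 0.29, Eef1b2 at 0.26, Eif5a at 0.22 and Eif2s3x at 0.22. Farthest toward replicate 2 was Eif4ebp3, at -0.73 from only 36.3 and 47.0 counts, with a posterior SD of 19.2% and 12.6% of its count. With alignment-free counts its ratio turned to 0.06 (40.4 and 30.9 counts), and Eif4ebp1, at -0.02 in the gene table, was at -0.63. Eef1akmt4 followed at -0.28, then Eif2d at -0.27 from 646 and 601 counts, Eef1akmt2 at -0.20 and Eef2k at -0.19. All 6 proteins that themselves act in elongation (Eef1a1, Eef1a2, Eef1b2, Eef1d, Eef1g and Eef2) were higher in replicate 1, by log2 ratios of 0.04 to 0.26; on TPM + 0.1 Eef1d turned. Of the 14 eIF3 genes 12 were higher in replicate 1, and 11 on TPM + 0.1 or 14 with alignment-free counts or without a filter. All 4 genes of the group of cap-binding inhibitors and transporter were lower in replicate 1, but only 1 of 4 was with alignment-free counts or without a filter on low counts, and 3 of 4 on TPM + 0.1. Of the 24 listed cell type markers with a ratio, 19 were also higher in replicate 1. These were all of those for inhibitory neurons (log2 ratios of 0.12 to 0.34), oligodendrocytes (0.09 to 0.34), microglia (0.25 to 0.37), red blood cells (0.60 and 0.72) and choroid plexus (Ttr at 1.25 from 164 and 52 counts, Kl at 0.02), 2 of 3 each for excitatory neurons and astrocytes, Acta1 of muscle at 0.16 and Cldn5 of endothelium at 0.68. Slc2a1 and Ly6c1 of endothelium were at -0.81 and -0.33, Myh6 of heart muscle at -0.44, Camk2a at -0.07 and Slc1a2 at -0.05. The summed marker TPM in replicates 1 and 2 was 392.1 and 254.3 for red blood cells and 77.4 and 102.8 for endothelium; the part of these cells in the factor ratios was not tested.

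**Figure D3:**
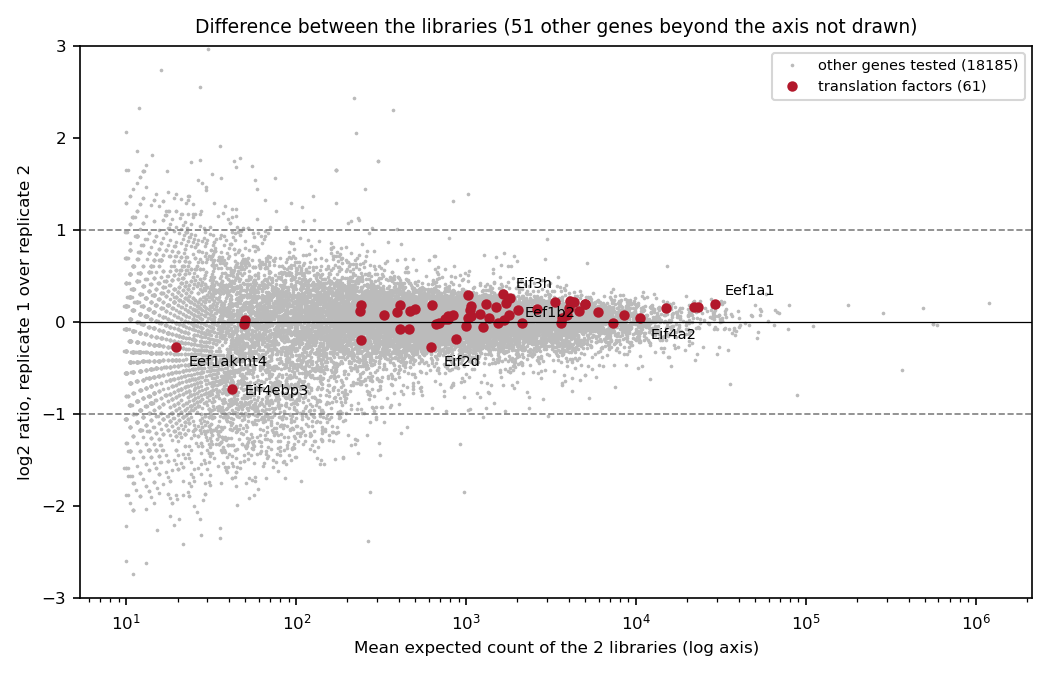
log2 ratio of replicate 1 over replicate 2 for each gene tested (vertical axis) against its mean expected count (horizontal log axis), with the 61 factor genes in red, the other genes in grey and dashed lines at 2-fold. All factor genes lie between the dashed lines, with Eif4ebp3 lowest at -0.73 and Eif3h highest at 0.31.

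Each library also came with transcript tables of both kinds, one from a transcriptome alignment and another that was alignment-free, so the leading transcript of each factor could be compared over 4 tables. Of the 55 factors at 1 TPM in both libraries with more than 1 annotated transcript, 38 had the same leading transcript in all 4 tables (69.1%, against 65.5% of all such protein-coding genes). Between the libraries alone the lead was the same for 52 of 55 factors in the alignment-based tables, against 88.0% of all such genes, and for 49 in the alignment-free tables. For the alignment-free tables the share of all such genes was not counted. In 9 factors the kinds of table disagreed in both libraries: Eif4a2, Eif1, Eif4h, Eef1d, Eif4e2, Eif1a, Eif5b, Eif2b1 and Eef2k. The other 8 differed in part of the tables: Eif5a, Eif4g1, Eif5, Eif2b2, Eif2b4, Eef1akmt2, Eef1e1 and Eef2kmt.

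Transcripts not annotated as protein_coding held 15.6% ± 1.19 of the factors' TPM in the alignment-based tables, against 17.2% ± 1.88 for all protein-coding genes, and 16.7% ± 1.56 against 20.2% ± 1.76 in the alignment-free tables. Among the 7 factors with the highest mean level the alignment-based share was 3.08% ± 1.06 in Eef1a1, 2.75% ± 0.985 in Eef2, and 0 in Eef1a2 and Eif5a, all of whose transcripts are annotated as protein_coding. It was 56.5% ± 2.29 in Eif4a2, 56.9% ± 1.86 in Eif1 and 14.7% ± 0.108 in Eif4g2. The 5 factors with the largest share in the alignment-based tables were Eif5b (52.8% in replicate 1 and 64.0% in replicate 2), Eif1, Eif4a2, Eef1e1 (64.5% and 47.0%) and Eif2b2 (52.0% and 45.2%). In the alignment-free tables Eif5b had an even larger share, 74.0% and 78.2%, whereas Eef1e1 had 23.1% and 15.3%.

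In Eif4a2 the alignment-based tables put 40.6% of the TPM in replicate 1 and 42.7% in replicate 2 on Eif4a2-210, a transcript of the class nonsense_mediated_decay with a coding sequence of 291 bases. The alignment-free tables gave that transcript 3.30% and 5.25%, and put 44.8% and 39.3% on Eif4a2-201, which codes for the full protein in 1221 bases. The share of Eif4a2 outside protein_coding transcripts was nevertheless alike, 54.9% and 58.2% against 46.2% and 55.7%. In Eif1 the processed_transcript Eif1-202, 383 bases long, held 53.9% and 52.4% in the alignment-based tables and 32.2% and 30.4% in the alignment-free tables, where the protein_coding Eif1-201 led with 55.7% and 60.2%. In both genes the libraries gave close values within a kind of table and the tables did not.

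Eef1d is known to give a short elongation factor and, by inclusion of an added coding exon, a long protein described in brain and testis as a transcription factor. The 3 Eef1d transcripts with the long reading frame, of up to 1980 coding bases, held 38.0% of the gene's TPM in replicate 1 and 34.7% in replicate 2. The alignment-free tables gave 39.8% and 33.1%. Of these 3, the one with an incomplete coding sequence had TPM only in the alignment-free tables. The 5 short transcripts with a complete coding sequence, of up to 843 bases, held 28.5% and 26.8% in the alignment-based tables and 40.8% and 42.4% in the alignment-free tables. The 7 other coding transcripts have an incomplete coding sequence under 1500 bases, so the annotation does not assign them to the short or the long protein. They held 22.5% and 27.5% in the alignment-based tables and 14.0% and 18.5% in the alignment-free tables. Complete long forms, at 38.0% and 34.7%, thus stood above complete short forms in the alignment-based tables and, at 36.8% and 31.3%, below them in the alignment-free tables. The lead likewise differed, being the long Eef1d-204 in the alignment-based and the short Eef1d-217 in the alignment-free tables.

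In Eif5a, Eif5 and Eef2k the lead changed between transcripts that share the same annotated coding intervals. All 9 Eif5a transcripts with 3% or more in any table code from the same 462 bases, with Eif5a-210 holding 45.9% ± 2.51 in the alignment-based tables and 18.6% in the alignment-free tables. The leads of Eif5, Eif5-202 and Eif5-212, code from the same 1287 bases. The leads of Eef2k, Eef2k-201 and Eef2k-204, code from the same 2172. In Eif4h the leads differ in their coding sequence. They were Eif4h-201 (684 coding bases; 69.2% ± 2.00 of the gene) in the alignment-based tables and Eif4h-205 (744 coding bases; 55.2%) in the alignment-free tables. In Eef1a1, Eef1a1-201 led throughout, with 84.5% ± 0.810 in the alignment-based tables and 57.6% ± 0.207 in the alignment-free tables, which gave 40.7% to Eef1a1-208, a fragment with an incomplete coding sequence.

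**Figure D4:**
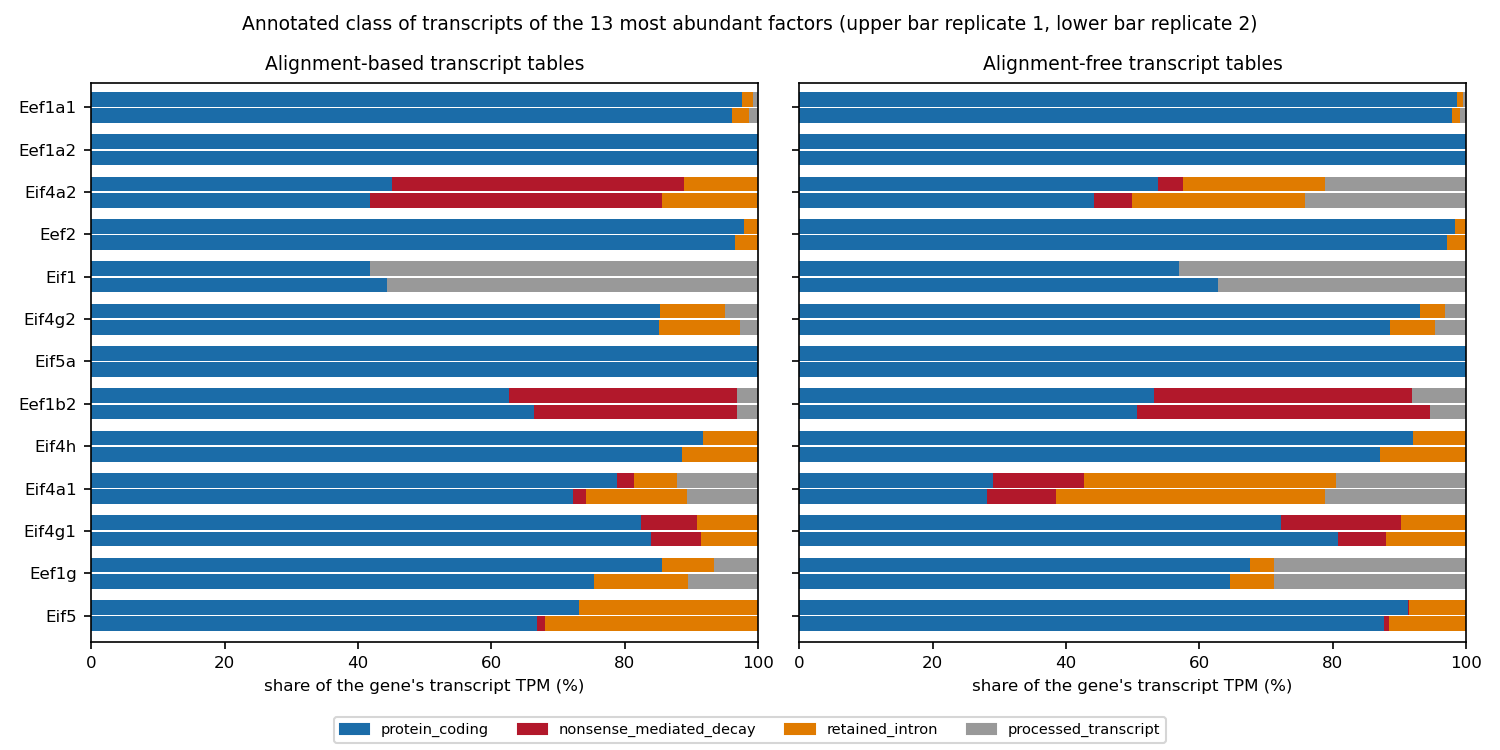
Share of each annotated transcript class in the TPM of the 13 most abundant factors (percent), in the alignment-based tables at left and the alignment-free tables at right, with replicate 1 above replicate 2. Eef1a1, Eef1a2, Eef2 and Eif5a are almost wholly protein_coding in all 4 tables, while Eif4a2 and Eif1 have large shares of other classes, and Eif4a1 differs most between the kinds of table, with 24.4% outside protein_coding at left and 71.4% at right.

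The gene table gave lower TPM than the alignment-free tables for all but 2 of the 60 factors. The median ratio of the gene table to the alignment-free tables was 0.598 for the 60 factors and 0.620 for all protein-coding genes at 1 TPM in both libraries. A ratio more than 1.5-fold away from the median of the protein-coding genes was seen in 5 factors, against 5.66% of those protein-coding genes. Eif4a1 (0.338), Eif2b1 (0.356) and Eif4ebp1 (0.376) lay below, and Eef1e1 (1.24) and Eif2s1 (1.05) above. For Eif2s1 the alignment-based tables put 45.7% in replicate 1 and 40.1% in replicate 2 on Eif2s1-203, a processed_transcript of 433 bases, and the alignment-free tables put 1.24% and 0% there.

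To see which factors can share reads, each window of 100 bases of the leading coding transcript was looked for, on the same strand, in the transcripts of every other annotated gene. Of the 60 factors at 1 TPM, 22 held such a window, and all 22 had fractional expected counts (off a whole number by more than 0.005). Of the 38 factors without a shared window, 2 had fractional counts. The 24 with fractional counts make up 40.0% of the 60, against 15.1% of all protein-coding genes at 1 TPM. Pseudogenes were the partner, or among the partners, for 18 of the 22. How many of all protein-coding genes hold such a window was not counted, so no share stands beside these 22 and 18.

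Eif3j2 shared 84.0% of its windows, all with Eif3j1, and the posterior SD of its count was 3.94% and 4.77%. Eif4ebp3 shared 62.8% with another annotated protein-coding gene. That gene had 3.78 and 5.65 TPM in replicates 1 and 2, above the 2.50 and 4.32 TPM of Eif4ebp3. Eif4a1 shared 60.8% with Eif4a-ps4, a processed pseudogene given 18.1 and 14.6 TPM in replicates 1 and 2, and the posterior SD of the Eif4a1 count was 1.53% and 1.58%. Eef1g shared 49.4%, chiefly with Gm4366 (2.81 and 3.63 TPM), and Eif2s3x 35.3%, all with Gm2223 (9.99 and 7.11 TPM). The levels of these pseudogenes were below those of the factors in every case listed here, and reads of a gene and of its copy cannot be fully told apart.

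**Figure D5:**
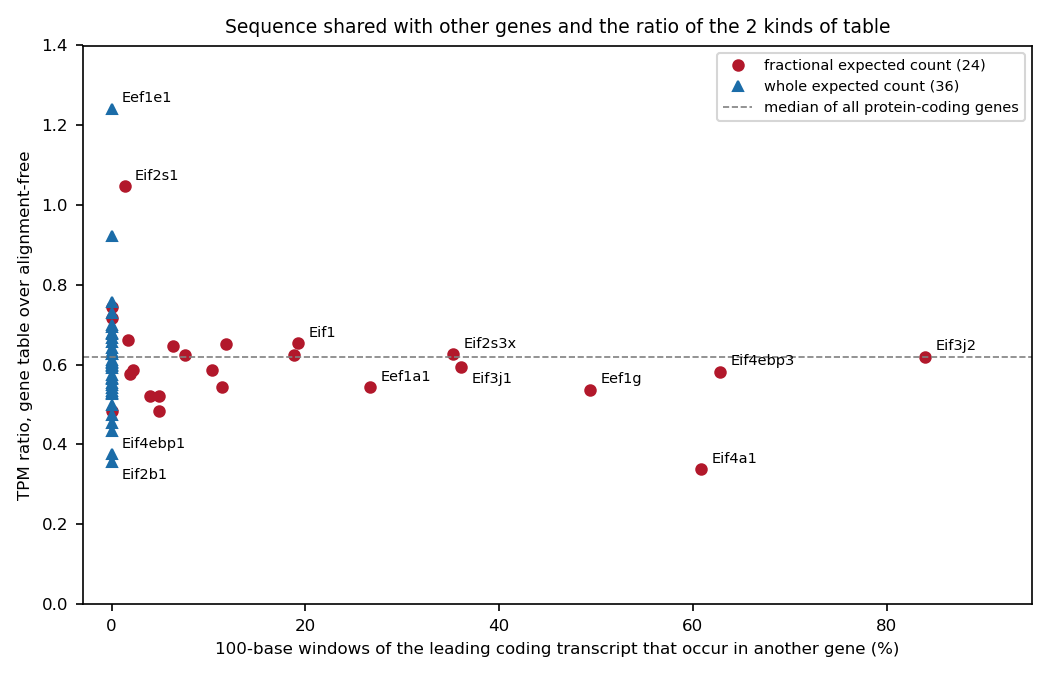
TPM ratio of the gene table over the alignment-free tables (vertical axis) against the percent of 100-base windows that occur in another gene (horizontal axis) for the 60 factors at 1 TPM, with circles for fractional and triangles for whole expected counts. Eif3j2 lies farthest right at 84.0% with a ratio close to the dashed median, Eif4a1 lies lowest at 0.338, and Eef1e1 and Eif2s1 lie highest without much sharing.

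Many messages for ribosomal proteins and elongation factors begin with a C followed by a run of pyrimidines, the terminal oligopyrimidine tract through which mTOR controls their translation. The start sites of 47 of the 63 factors were matched to the RefSeq promoter table (GRCm38.p6). For each, the promoter start nearest to that of the leading coding transcript was taken and is called the annotated start. The median distance between these starts was 27 bases, with 2 for Eif3f, 58 for Eif2s3x and 324 for Eif4a2. A C at the annotated start followed by at least 4 pyrimidines was found in 2 of the 47 (4.26%), in 2.37% of the expressed protein-coding genes, in 12 of 56 ribosomal protein genes (21.4%) and in 2.51% of all windows in the table. Allowing the tract to begin within 5 bases of the annotated start gave 10 of 47 factors (21.3%), against 20.1% of expressed protein-coding genes and 44.6% of ribosomal protein genes. The 2 factors with a tract at the start are printed with the starts of Eef1a1, Eef1a2 and Eef2, the 3 most abundant elongation factors, as 30 bases from 10 before the start on, with the pyrimidine run from the start in capitals. The windows are chrX:94212632-94212661 (minus strand), chr7:108934405-108934434 (plus), chr9:78481705-78481734 (minus), chr2:181156996-181157025 (minus) and chr10:81176621-81176650 (plus).
Eif2s3x: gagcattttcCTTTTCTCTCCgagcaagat
Eif3f: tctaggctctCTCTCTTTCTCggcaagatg
Eef1a1: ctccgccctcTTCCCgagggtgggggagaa
Eef1a2: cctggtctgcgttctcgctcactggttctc
Eef2: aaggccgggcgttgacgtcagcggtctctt

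The run was 11 pyrimidines long in Eif2s3x and Eif3f. In Eef1a1 it was 5 long and began with T at the annotated base. Eef1a1 was among the 10 factors with a tract that begins within 5 bases of the annotated start. Eef1a2 and Eef2, where the annotated base was a G, were not among those 10. A window without the tract says only that these letters do not stand at the annotated start.

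The other genes of the pathway were all measured. Of 43 genes listed, 43 reached 1 TPM in both libraries and 0 differed by 2-fold, with 28 higher in replicate 1. Of all nuclear protein-coding genes 58.3% reached 1 TPM in both. Of the protein-coding genes at 1 TPM, 0.366% differed by 2-fold and 56.3% were higher in replicate 1. The 12 other initiation proteins had a median of 40.4 ± 0.350 TPM, led by Impact, a regulator of the eIF2 kinase Gcn2 known from neurons, at 137.6 and 136.3 TPM in replicates 1 and 2. Pabpc1, which binds the poly(A) tail, had 97.1 ± 2.595 TPM, and Ddx3x, a helicase of initiation, 85.6 ± 3.44 TPM. The 11 kinases and phosphatase subunits that act on the factors had a median of 15.6 ± 1.17 TPM, with Mtor at 41.8 TPM in both libraries and the eIF2 kinase Eif2ak2, better known for its response to double-stranded RNA, lowest at 2.15 and 2.50 TPM. The 9 enzymes for hypusine and for diphthamide, a modification of eEF2, had a median of 11.2 ± 0.933 TPM, the 5 termination and rescue factors 26.5 ± 0.262 TPM and the 6 mitochondrial translation factors 13.2 ± 0.541 TPM.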

How the data were processed

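Per the labels, total RNA of left cerebral cortex was measured in 2 libraries of 1 group. Per the text deposited with each library, values refer to mm10 and GENCODE M21. Names of the programs that made these tables were not given in the sources used here. The authors deposited expected counts, not normalized, and TPM in a gene table and in transcript tables of both kinds, per the file headers. Transcript shares, also deposited as percent values by the authors, were computed here from TPM for both kinds of table. The posterior SD of a count is a score column deposited by the authors, per the file headers. Reads sit on a C57BL/6J reference, and the CAST/EiJ allele was not analysed separately. The deposited effective lengths subtract 99.0 bases from long transcripts in the alignment-based tables and 339.2 bases in the alignment-free ones, so short transcripts weigh differently.

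The 63 members and all gene lists were chosen with earlier results of these data known. The log2 ratio used rounded expected counts, a mean of 10 counts or more, edgeR 4.0.16 TMM (factors 0.998 and 1.00), log2 CPM and a prior count of 2 in R 4.3.3; a test on simulated counts recovered the changes put in. No test between groups was possible. Alternatives were DESeq2 1.42.0 size factors, other filters, prior counts, thresholds, the posterior mean TPM and the alignment-free tables. Per-library values are given for the 10 most abundant members, the paralogue families, the 5 largest ratios each way and members under 1 TPM; further members were named after their values were seen. Sequences were read from GENCODE M21 transcripts and RefSeq promoters (GRCm38.p6) with Biopython 1.88. Reads carry no molecular identifiers, so floors cover counting error only.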

Additional observations from a re-analysis of the deposited data

How the results depend on the processing

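In the alignment-free tables the median of the factors was 57.8 TPM and their sum 9272 TPM. In the gene table, rescaled to protein-coding genes, the median of the factors was 76.9 TPM and their sum 12171 TPM. The alignment-free tables moved Eef1a2 to Eef1a1 to 0.537, Eif4a2 to Eif4a1 to 1.88 and Eif4g3 to Eif4g1 to 0.617, and the posterior mean TPM moved Eif4a2 to Eif4a1 to 2.96. The median log2 ratio of replicate 1 to replicate 2 was 0.0742 with library size on genes alone, 0.11 without a filter on low counts, 0.12 with alignment-free counts and 0.0452 on TPM + 0.1. The cause was not tested. Under TPM + 0.1 the median over all genes tested was itself -0.05, and the sign changed for 13 factors; with alignment-free counts it changed for 10. The factors that reached the threshold were 57 to 61 when the threshold (0.5 to 5 TPM) or the table was changed. None passed 2-fold under any scaling, filter or table tried.

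Leaving out a library gave a median of 32.4 to 35.4 TPM, a sum of 5202 to 5535 TPM, 60 to 61 factors at 1 TPM and 14.7% to 16.4% of TPM outside protein_coding transcripts. It gave 0.614 to 0.625 for Eef1a2 to Eef1a1, 3.02 to 3.03 for Eif4a2 to Eif4a1, 0.0926 to 0.0942 for Eif5a2 to Eif5a and 0.634 to 0.697 for Eif4g3 to Eif4g1. With the lead taken by estimated count, 49 of 55 factors had the same leading transcript in the 4 tables. At 10 TPM or more it was 44 of 50 by estimated count and 34 of 50 by TPM. The shares of all protein-coding genes by estimated count, or at 10 TPM or more, were not counted. Of the values of single factors, 134 of 315 TPM values moved by more than the spread of the libraries, and all 423 log2 ratios stayed on their side of 2-fold. No paired analysis was possible because there is 1 group. Depth limits Eif4e1b, Eef1akmt3, Eef1akmt4 and Eif4ebp3, and also Eif4ebp1 (55 and 43 counts in replicates 1 and 2) and Eef2kmt (57 and 43 counts).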
